A study of Mus musculus with 33 samples.

Results

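The genes described here are 10 components of the calcium toolkit of the mouse oocyte: the inositol trisphosphate receptors Itpr1, Itpr2 and Itpr3, the store pump Atp2a2, the store sensor Stim1 and its channel Orai1, the plasma membrane channels Trpm7 and Cacna1h, the store protein Calr and the kinase Camk2g. They were chosen by name and are 10 of the 35321 genes counted. Single germinal vesicle oocytes of C57BL6/Babr females aged 3 weeks were freed from the ovary with collagenase and trypsin, and the RNA of each oocyte was sequenced. The mice carried a CRISPR/Cas9 deletion in Nlrp5, which introduces an early stop codon and removes NALP5, a core protein of the subcortical maternal complex. The 33 oocytes were 10 Nlrp5 +/+, 16 Nlrp5 +/- and 7 Nlrp5 -/-, all of 1 strain and age. By the study's methods the Nlrp5 -/- and +/- females came from shared litters and the Nlrp5 +/+ females mostly from the parent colony, so genotype and colony cannot be told apart in comparisons with Nlrp5 +/+. Oocytes with a non-surrounded nucleolus (NSN) are still transcribing, and those with a surrounded nucleolus (SN) are later and mostly silent. The study assigned these stages after sequencing, from a list of genes that differ between them, and the stages were read here from its plots. There were 4 NSN and 6 SN Nlrp5 +/+ oocytes, 9 NSN and 7 SN Nlrp5 +/- oocytes, and 4 NSN and 2 SN Nlrp5 -/- oocytes, and 1 Nlrp5 -/- oocyte had no stage. The study's text speaks of 2 to 6 samples for each stage and genotype. A caption in its supplement gives 4 NSN and 6 SN Nlrp5 +/- oocytes. The 9 and 7 read here for Nlrp5 +/- are more than either. None of the 10 genes is on the staging list. No label names the mouse of an oocyte, so each genotype and stage was treated as 1 sample: an SD describes the spread between oocytes, and no test between groups was possible.

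Calcium drives the start of mammalian development. At fertilization the sperm brings a phospholipase C that forms inositol trisphosphate, which opens receptors on the endoplasmic reticulum, and repeated waves of calcium pass through the egg. The pump refills the store from the cytoplasm, channels in the plasma membrane let calcium in from outside, and a calmodulin-dependent kinase reads the waves and sets off the exit from meiosis. The growing oocyte has to lay down the transcripts or proteins of this apparatus before transcription stops.

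Total counts per oocyte ran from 4223595 to 15573360. Nlrp5 transcript followed the labels: it was 1362 to 2556 normalized counts in the staged Nlrp5 -/- oocytes, 5062 to 13472 in Nlrp5 +/- and 10114 to 29131 in Nlrp5 +/+. Normalized counts are counts divided by a size factor per oocyte. All 12 oocyte markers had counts in each group. The summed level of 11 granulosa cell genes that are low in Nlrp5 +/+ oocytes was 12.1 CPM (counts scaled to a common total) at most in Nlrp5 +/+, 27.6 at most in Nlrp5 +/-, and 9.64 to 16.7 in the Nlrp5 -/- oocytes 29, 30 and 31, but 157, 302 and 110 in the Nlrp5 -/- oocytes 13, 14 and 7. The 11 genes were picked from 16 markers for their low level in these Nlrp5 +/+ oocytes, so the low values there follow from the choice. Over all 16 granulosa cell markers oocytes 13, 14 and 7 had 485, 747 and 446 CPM, beside 284 to 476 in Nlrp5 +/+. On the whole list oocyte 7 thus lay inside that range and oocyte 13 just above it. The unstaged Nlrp5 -/- oocyte 15 stood further apart, with 883 CPM of the 11 genes and the lowest summed oocyte markers, 15859 CPM. It also had 681 CPM of theca and interstitial cell markers (the next highest, Nlrp5 +/- oocyte 61, had 312). The libraries used 10 first indices, and none was shared between genotypes, so genotype and first index cannot be told apart.

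All 10 genes were detected in 33 of 33 oocytes, except Stim1, which had counts in 32. Per kilobase of exon, Calr stood highest, at 809 ± 196 normalized counts (SD, 33 oocytes), and its lowest oocyte (512) lay above the highest oocyte of Camk2g (456). Camk2g (280 ± 67.3) and Orai1 (277 ± 92.3) did not differ beyond their spread: Camk2g was the higher in 21 of 33 oocytes. Itpr2 (151 ± 51.1) and Atp2a2 (137 ± 41.8) also overlapped, with Itpr2 higher in 19 oocytes. Below them came Trpm7 (82.8 ± 39.3), Itpr1 (47.8 ± 16) and Cacna1h (27.8 ± 5.70), neighbours whose ranges overlapped although the first exceeded the next in 29 and 31 oocytes. Stim1 (5.06 ± 3.95) and Itpr3 (1.92 ± 1.35) were the lowest, and the range of Stim1 lay wholly below that of Cacna1h.

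**Figure D1:**
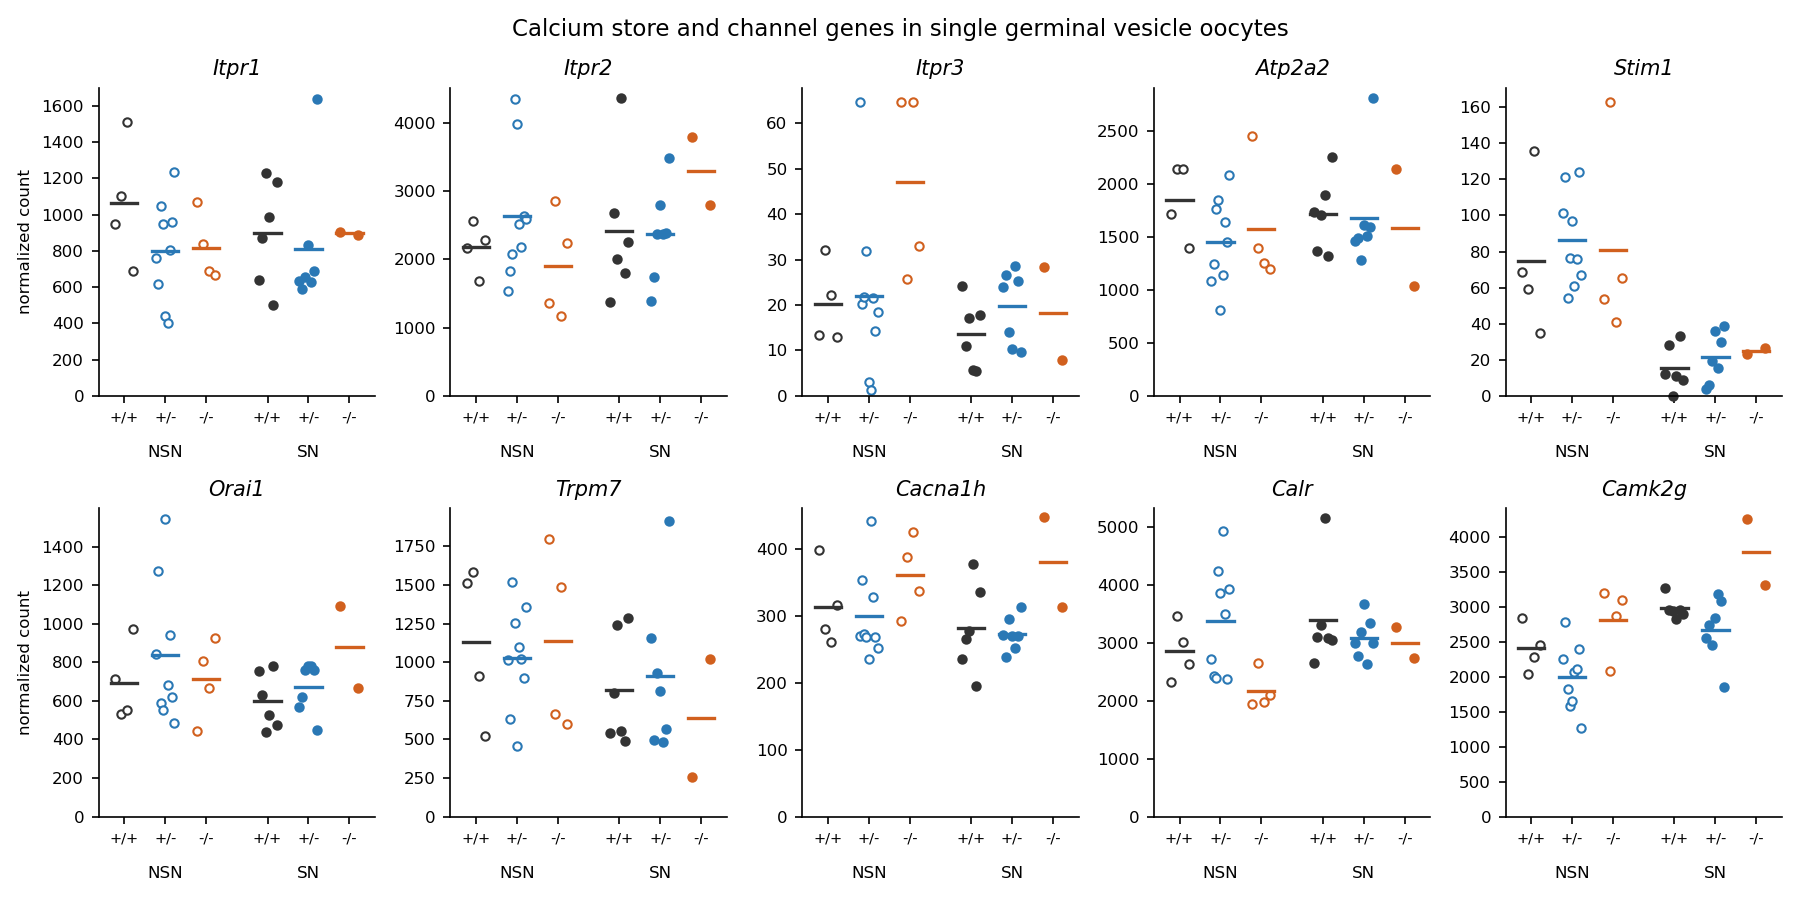
Normalized counts of the 10 genes (y axes, linear from 0) in each staged oocyte, by stage and Nlrp5 genotype (x axes). Open points are NSN oocytes, filled points SN oocytes, and bars are group means. In the Stim1 panel the SN oocytes reach 38.8 at most and 16 of 17 NSN oocytes lie above that; in the other panels the stages overlap within each genotype, except for Calr and Camk2g in Nlrp5 -/-, where both SN oocytes lie above the NSN oocytes.

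In nearly every family the chosen gene was the main one per kilobase. Itpr2 made up a median of 75.8% of the summed level of the inositol trisphosphate receptors (range 55.3 to 91.0% over 33 oocytes), Itpr1 22.6% and Itpr3 0.824%. Atp2a2 made up 99.8 to 100% of the store pumps, and Camk2g 98.8 to 100% of calcium/calmodulin-dependent kinase II. Orai1 had a median share of 95.8% beside Orai2 and Orai3, Trpm7 92.5% beside Trpm2 and Trpm6, and Cacna1h 77.9% beside Cacna1g and Cacna1i. The store sensors were the exception: Stim2 had a median share of 94.0% and Stim1 of 6.01%. Of the ryanodine receptors, the other release channels of the endoplasmic reticulum, Ryr3 reached 6.10 and Ryr2 1.83 normalized counts per kilobase, and Ryr1 0.0496.

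The inositol trisphosphate receptors are tetrameric channels that release calcium from the store. Itpr1 (chr6:108213096-108551109 of GRCm38, plus strand), the type best studied in eggs, had 689, 949, 1104 and 1512 normalized counts in the NSN Nlrp5 +/+ oocytes. The other groups overlapped this range: lowest, median and highest were 401, 805 and 1238 in NSN Nlrp5 +/-, 502, 928 and 1227 in SN Nlrp5 +/+, and 589, 658 and 1640 in SN Nlrp5 +/-. The 4 NSN Nlrp5 -/- oocytes lay between 669 and 1069 and the 2 SN ones were at 890 and 903. None of the 9 comparisons between groups reached 0.5 on the log2 scale for Itpr1, the range being -0.41 to 0.14. Without NSN oocyte 87 the NSN values of Nlrp5 -/- and Nlrp5 +/- minus Nlrp5 +/+ were -0.54 and -0.57.

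Itpr2 (chr6:146108299-146502223, minus strand) had 1688, 2173, 2285 and 2570 normalized counts in NSN Nlrp5 +/+ oocytes and 1165, 1357, 2241 and 2864 in NSN Nlrp5 -/- oocytes. The 2 SN Nlrp5 -/- oocytes were at 2799 and 3798, so that the mean was 0.79 higher on the log2 scale in SN than in NSN for this genotype. The groups overlapped, because NSN oocyte 14 was at 2864, and the same difference was 0.15 in Nlrp5 +/+ and -0.16 in Nlrp5 +/-. Without SN oocyte 80 the Nlrp5 +/+ value was -0.11. The Nlrp5 +/- value was -0.03 without NSN oocyte 54 and 0.25 within first indices. An annotated gene on the opposite strand, Gm44087, lies within an intron of Itpr2 and shares no exon base with it, and had a mean of 2250 normalized counts; the library kit does not keep strand.

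Itpr3 (chr17:27057304-27122223, plus strand) rested on a median raw count of 20. It stood at 12.9, 13.4, 22.2 and 32.1 normalized counts in NSN Nlrp5 +/+ oocytes and at 25.6, 33, 64.6 and 64.7 in NSN Nlrp5 -/- oocytes. The means differed by 1.18 on the log2 scale, with 3 of the 4 Nlrp5 -/- oocytes above the highest Nlrp5 +/+ oocyte and oocyte 14 inside the Nlrp5 +/+ range. In SN oocytes the same difference was 0.40, with the 2 Nlrp5 -/- oocytes at 7.96 and 28.3. Without oocyte 7 it was -0.70 and without oocyte 31 it was 1.01.

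Atp2a2 encodes SERCA2, the pump that fills the endoplasmic reticulum with calcium (chr5:122453513-122502225, minus strand). It had 1400, 1717, 2140 and 2141 normalized counts in NSN Nlrp5 +/+ oocytes and 1201, 1257, 1395 and 2453 in NSN Nlrp5 -/- oocytes. The SN oocytes covered 1317 to 2257 in Nlrp5 +/+, 1283 to 2810 in Nlrp5 +/- and 1033 to 2137 in Nlrp5 -/-. All 9 differences lay between -0.35 and 0.21 on the log2 scale, and the oocytes overlapped in each. Without SN oocyte 7 the Nlrp5 -/- values were -0.61 for SN minus NSN and -0.73 and -0.70 for SN Nlrp5 -/- minus Nlrp5 +/+ and +/-; without SN oocyte 31 they were 0.44, 0.32 and 0.35. The opposite-strand gene Gm43361 shares 3206 bases of exon with Atp2a2 and had a mean of 28.0 normalized counts, beside 1671 for Atp2a2.

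Stim1 spans the membrane of the endoplasmic reticulum, senses falling calcium inside it and opens ORAI channels at the cell surface. It lies at chr7:102267806-102437319 on the plus strand. Its promoter, 250 bases before to 50 after the RefSeq start (chr7:102267569-102267868, plus strand, GRCm38.p6, sequence from RefSeq), is shown because Stim1 was the member that differed most between stages; capitals mark the matches to the GC box GGGCGG on either strand.

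Stim1: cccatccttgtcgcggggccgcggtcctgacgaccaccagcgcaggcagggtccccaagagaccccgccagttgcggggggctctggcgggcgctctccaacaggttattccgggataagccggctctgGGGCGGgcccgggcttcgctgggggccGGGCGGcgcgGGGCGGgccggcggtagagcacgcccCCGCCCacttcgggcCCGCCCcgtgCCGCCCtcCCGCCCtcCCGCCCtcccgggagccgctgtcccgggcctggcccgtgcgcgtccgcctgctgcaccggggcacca

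It holds 8 GC boxes and 38 CpG dinucleotides, more than 95% of the 32851 promoters in the table, of which 35.7% hold at least 1 GC box. The Orai1 promoter holds 3 GC boxes, that of Itpr2 5, those of Calr and Itpr3 2 and 1, and that of Trpm7 none. These are matches of letters only.

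Stim1 was the clearest difference between stages. In NSN Nlrp5 +/+ oocytes it had 35.0, 59.4, 68.5 and 136 normalized counts, and in SN Nlrp5 +/+ oocytes the lowest, median and highest were 0, 11.8 and 32.9. In Nlrp5 +/- the NSN oocytes ran from 54.4 through a median of 76.4 to 124, and the SN oocytes from 3.99 through 19.4 to 38.8. In Nlrp5 -/- the NSN oocytes had 41.0, 53.5, 65.3 and 163 and the SN oocytes 22.9 and 26.8. Every SN oocyte lay below every NSN oocyte of its own genotype. The unstaged Nlrp5 -/- oocyte 15, whose library stood apart in its granulosa and theca cell genes, had 43.7 normalized counts.

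The mean of Stim1 was 74.6 ± 43.0 in NSN and 15.5 ± 12.5 in SN Nlrp5 +/+ oocytes, a log2 difference of -2.19, or 0.219 times. It was 86.5 ± 25.6 and 21.3 ± 13.9 in Nlrp5 +/-, a difference of -1.97, and 80.7 ± 55.7 and 24.9 ± 2.71 in Nlrp5 -/-, a difference of -1.66 (SD over oocytes). Summed over oocytes, Stim1 took 10.4 CPM in NSN Nlrp5 +/+ (95% Poisson interval 9.43 to 11.5) and 2.15 in SN (1.81 to 2.53), 12 (11.2 to 12.9) and 2.74 (2.31 to 3.23) in Nlrp5 +/-, and 12.6 (11.4 to 13.9) and 3.30 (2.48 to 4.30) in Nlrp5 -/-. These intervals cover counting error only. The 0 was in oocyte 77, with 5136525 counts in all, and a count of 0 allows up to 4.67 normalized counts there.

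The Stim1 difference kept its sign under all the alternatives run, but its size moved. It was -1.07 in Nlrp5 -/- without oocyte 14 and -0.96 without oocytes 13, 14 and 7. In Nlrp5 +/- it was -1.02 when oocytes 46 and 48, whose labels are hard to read in the plots, exchanged their stages; their staging scores, -5.13 and -2.40, lay among those of SN and NSN oocytes as read. For Stim2, the other store sensor, the SN minus NSN values were -0.23, 0.23 and -0.04 in Nlrp5 +/+, +/- and -/-, and the oocytes overlapped in each. The Nlrp5 -/- value averages SN oocytes at 190 and 571, and was 0.54 without the first of them (oocyte 7) and -1.04 without the other (oocyte 31). In Nlrp5 +/+ it was -0.09 without SN oocyte 80 and in Nlrp5 +/- 0.14 without SN oocyte 39. The share of Stim1 in the summed store sensors was a median of 10.7% in NSN oocytes and 2.57% in SN oocytes.

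Orai1, the pore of the store-operated channel (chr5:123015074-123030456, plus strand), had 533, 551, 716 and 971 normalized counts in NSN Nlrp5 +/+ oocytes and 438, 578 and 781 as lowest, median and highest in SN ones. In Nlrp5 +/- the NSN oocytes ran from 487 through 681 to 1544 and the SN oocytes from 447 through 759 to 784. The stages overlapped in all genotypes, and the SN minus NSN differences were -0.21, -0.31 and 0.30 in Nlrp5 +/+, +/- and -/-. The NSN Nlrp5 -/- oocytes were at 442.98, 669, 809 and 928 and the SN oocytes at 666 and 1093, so 1 SN oocyte set the sign: without oocyte 7 the difference was -0.10, and without oocyte 31 it was 0.62. In Nlrp5 +/+ it was 0.0018 without NSN oocyte 87, and in Nlrp5 +/- it was 0.16 with medians in place of means and -0.15 without NSN oocyte 56. Orai3, at a mean of 43.2 normalized counts, had SN minus NSN differences of -0.57, -0.96 and -0.63, with overlapping oocytes. The value in Nlrp5 +/- rested on NSN oocyte 61, which had 303 normalized counts, and was -0.02 without it. In Nlrp5 -/- it was -0.29 without NSN oocyte 14 and -1.01 without SN oocyte 31. Gm2479, on the opposite strand, overlaps Orai1 by 7 bases in the coordinates of the count table. In an annotation of GRCm39 they share 86 bases of exon. Gm2479 had a mean of 1466 normalized counts.

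Trpm7 and Cacna1h let calcium in from outside and are the channels through which mouse eggs are known to refill their stores. Trpm7 (chr2:126791565-126876230, minus strand) had 522, 908, 1514 and 1584 normalized counts in NSN Nlrp5 +/+ oocytes and 487, 679 and 1287 as lowest, median and highest in SN ones, a difference of -0.47. For Nlrp5 -/-, NSN oocytes had 601, 664, 1484 and 1796 and the SN oocytes 256 and 1023, a difference of -0.83, and in Nlrp5 +/- the difference was -0.18. The stages overlapped in each genotype. Without oocyte 7 the difference in Nlrp5 -/- was -0.15. In Nlrp5 +/+ it was -0.26 without NSN oocyte 78, and in Nlrp5 +/- it was -0.47 without SN oocyte 55. The unstaged oocyte 15, whose library stood apart, had 222, the lowest of the 33 oocytes; it also had the highest Atp2a2 level, 3149.

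Cacna1h, the T-type channel (chr17:25374285-25433783, minus strand), was the steadiest member together with Camk2g, with an SD within groups of 0.27 on the log2 scale against 0.71 for Trpm7 and 1.08 for Stim1. It had 260, 281, 316 and 398 normalized counts in NSN Nlrp5 +/+ oocytes, 195 to 377 in SN ones, 292, 337, 388 and 425 in NSN Nlrp5 -/- oocytes, and 313 and 448 in SN ones. The Nlrp5 -/- means were higher than those of Nlrp5 +/+ by 0.20 in NSN and 0.44 in SN, and the oocytes overlapped at both stages. Without oocyte 7, which had the 448, the SN value was 0.15, and without oocyte 31 it was 0.67.

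Calr encodes calreticulin, the main calcium-binding protein of the store (chr8:84841850-84846934, minus strand). Its promoter (chr8:84846882-84847181, minus strand, GRCm38.p6, from RefSeq) is shown because it is the only member promoter with a match to the endoplasmic reticulum stress element, which is CCAAT and CCACG set 9 bases apart and is marked in capitals; searched on both strands, 0.119% of all promoters hold it.

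Calr: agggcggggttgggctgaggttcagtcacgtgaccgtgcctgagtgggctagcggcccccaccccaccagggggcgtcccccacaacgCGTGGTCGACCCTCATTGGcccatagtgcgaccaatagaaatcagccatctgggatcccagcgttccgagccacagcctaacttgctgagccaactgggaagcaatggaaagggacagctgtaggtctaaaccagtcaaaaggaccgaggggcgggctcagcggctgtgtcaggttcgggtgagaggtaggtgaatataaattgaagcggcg

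Calr had 2315, 2634, 3006 and 3462 normalized counts in NSN Nlrp5 +/+ oocytes and 1951, 1981, 2096 and 2650 in NSN Nlrp5 -/- oocytes. The NSN Nlrp5 -/- mean was 2170 ± 326 against 2854 ± 494, a log2 difference of -0.40, and 3 of the 4 Nlrp5 -/- oocytes lay below every Nlrp5 +/+ oocyte. The SN Nlrp5 -/- oocytes were at 2740 and 3265, above all 4 NSN oocytes of that genotype, a difference of 0.47. In Nlrp5 +/+ the SN oocytes ran from 2644 through 3087 to 5159 and the difference was 0.25, while in Nlrp5 +/- it was -0.13. Without SN oocyte 80, which holds the 5159, the Nlrp5 +/+ difference was 0.09.

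Camk2g encodes the gamma chain of calcium/calmodulin-dependent kinase II, the kinase that acts on the fertilization signal in eggs (chr14:20734875-20794088, minus strand). It had 2036, 2282, 2457 and 2848 normalized counts in NSN Nlrp5 +/+ oocytes, and 2827, 2954 and 3274 as lowest, median and highest in SN ones. NSN oocyte 70 and SN oocyte 80 alone brought the groups into overlap. In Nlrp5 +/- the NSN oocytes ran from 1275 through 2068 to 2787 and the SN oocytes from 1855 through 2748 to 3192. In Nlrp5 -/- the NSN oocytes had 2083, 2867, 3093 and 3199, below the SN oocytes at 3317 and 4262. The SN minus NSN differences were 0.31, 0.42 and 0.43 in Nlrp5 +/+, +/- and -/-, all under 0.5 in size; without oocyte 7 the last was 0.24.

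Between genotypes, Camk2g was the 1 member of 10 whose SN Nlrp5 -/- oocytes did not overlap those of Nlrp5 +/+ and Nlrp5 +/-, where 15% and 10.9% of all genes did not, so the members' share was not above the background. Both oocytes, at 3317 and 4262, lay above the highest SN Nlrp5 +/+ oocyte (3274) and the highest SN Nlrp5 +/- oocyte (3192), with log2 differences of 0.35 and 0.50. Without oocyte 7, which carried 110 CPM of the low granulosa cell genes, these were 0.16 and 0.31, and without oocyte 31 they were 0.52 and 0.67. In NSN oocytes the Nlrp5 -/- mean was 0.22 above Nlrp5 +/+ and 0.49 above Nlrp5 +/-, with overlap.

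**Figure D2:**
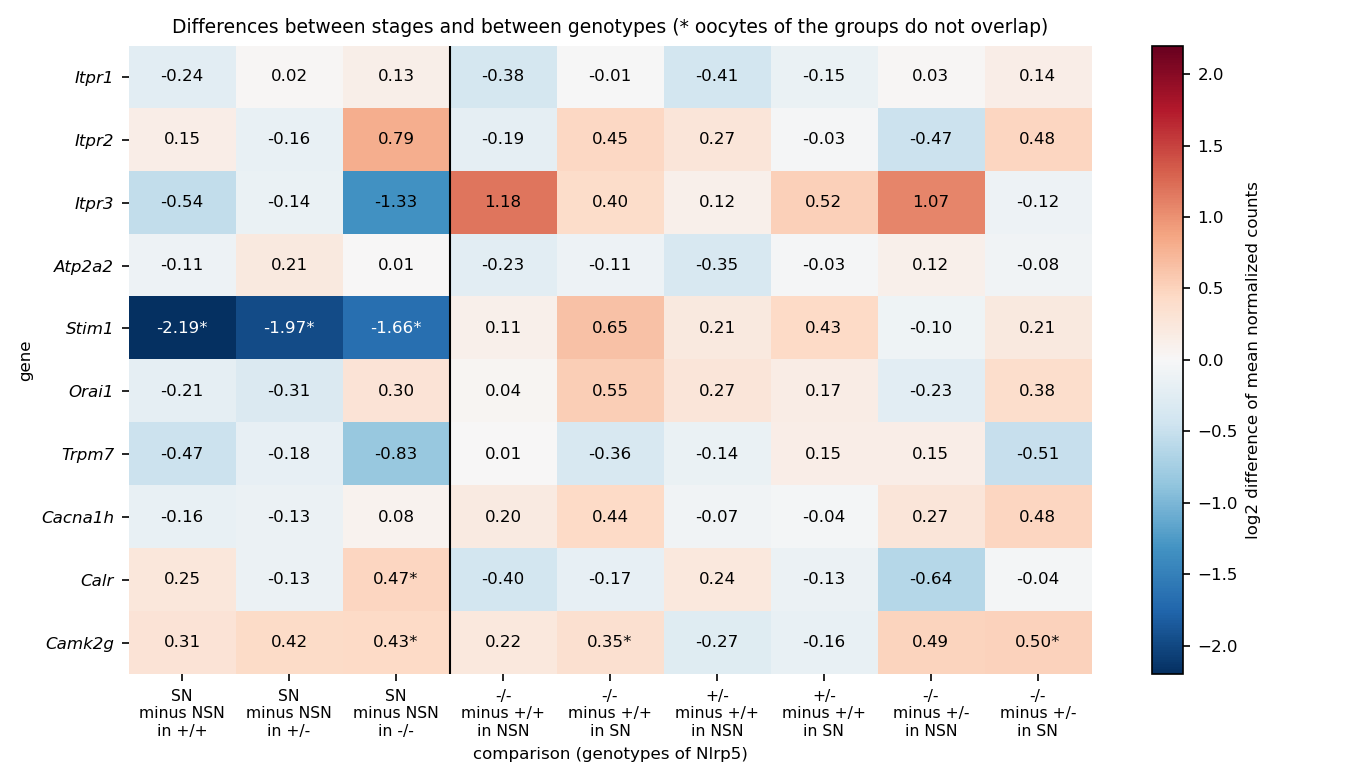
Log2 differences of mean normalized counts (colour and printed value) for the 10 genes (rows) in 9 comparisons (columns), the first 3 between stages and the other 6 between genotypes. An asterisk marks groups whose oocytes do not overlap; Stim1 carries it in all 3 stage comparisons, and Camk2g is the only member that carries it between genotypes.

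Between stages, members were counted as different where the log2 difference reached 0.5 in size. In Nlrp5 +/+ 2 of 10 did, Stim1 and Itpr3, both lower in SN, against 34.7% of the 13896 genes with a mean of at least 10 normalized counts. In Nlrp5 +/- only Stim1 did, against 29.5%, and in Nlrp5 -/- 4 did, Stim1, Itpr3 and Trpm7 lower and Itpr2 higher, against 38.2%. The shares of the members were thus below or near the background. The median size of the difference was 0.24, 0.17 and 0.45 over the members and 0.34, 0.30 and 0.38 over all genes, in the same order of genotypes. Single oocytes moved some of these values: Itpr3 was at -0.24 in Nlrp5 +/+ without NSN oocyte 78, and in Nlrp5 -/- Trpm7 was at -0.15 without SN oocyte 7 and -2.14 without SN oocyte 31, and Itpr3 at -2.42 and -0.71.

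Oocytes of the stages did not overlap for 1 member in Nlrp5 +/+, with a background of 9.69%, for 1 in Nlrp5 +/-, with a background of 1.32%, and for 3 in Nlrp5 -/-, with a background of 20.2%. Stim1 was the member in the first pair of genotypes, and Stim1, Calr and Camk2g were those in Nlrp5 -/-. Of the 13896 genes, 41 (0.295%) were lower in SN without overlap in all 3 genotypes, Stim1 among them. The stage rests on other genes of the same libraries, so these values describe how Stim1 went with the staging genes. The libraries were primed on the poly(A) tail, and a shorter tail and less transcript cannot be told apart.

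The staging score sums this up per oocyte, as the mean log2 level of the genes higher in NSN minus that of the genes higher in SN. Within the 17 NSN oocytes, Stim1 was higher where the score was higher (Pearson r = 0.61), and within the 15 SN oocytes r was 0.23. NSN oocyte 14 had both the highest score (-1.99) and the highest Stim1 (163), and r without it was not taken. For Camk2g r was -0.00026 within NSN and -0.28 within SN oocytes, and for Trpm7 -0.52 and 0.51. These are descriptions over oocytes that may share a mouse, and score and gene share a library.

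**Figure D3:**
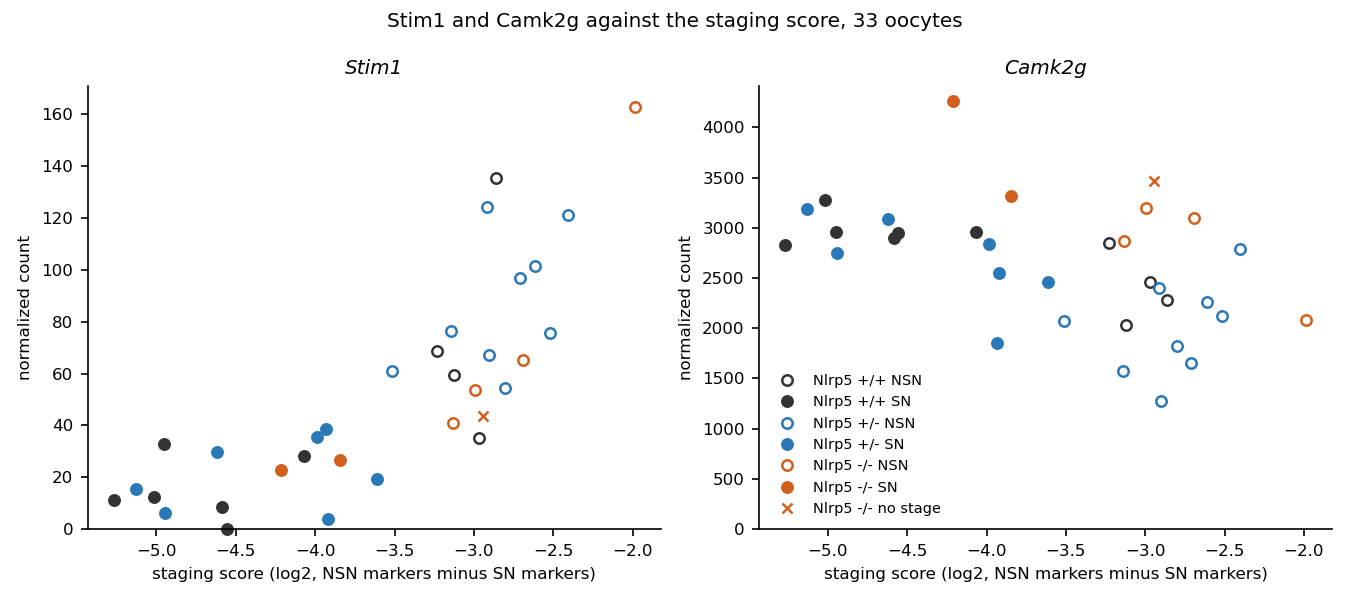
Normalized counts of Stim1 and Camk2g (y axes, linear) against the staging score (x axes, log2) in 33 oocytes, coloured by Nlrp5 genotype, open for NSN, filled for SN and a cross for the unstaged oocyte. Stim1 lies at 38.8 or less in SN oocytes and reaches 163 in NSN oocyte 14, which has the highest score. Camk2g lies higher on the SN side with wide overlap.

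Oocytes of both stages shared a first index in 6 cases, 3 in Nlrp5 +/+, 2 in Nlrp5 +/- and 1 in Nlrp5 -/-. Each case held only 1 or 2 SN and 1 to 3 NSN oocytes. Stim1 was lower in SN in 6 of 6, with log2 differences from -3.89 to -0.73, and Orai1 also in 6 of 6, from -1.0 to -0.05. The -1.0 of Orai1 rested on 1 SN oocyte, oocyte 55. Among all genes, 9.51% were lower in all 6. Camk2g was higher in SN in 6 of 6, with differences from 0.13 to 0.42, against 7.05% of all genes. Calr was higher in 5 of 6 and Itpr3 lower in 5 of 6, and the other members split 4 to 2 or 3 to 3.

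**Figure D4:**
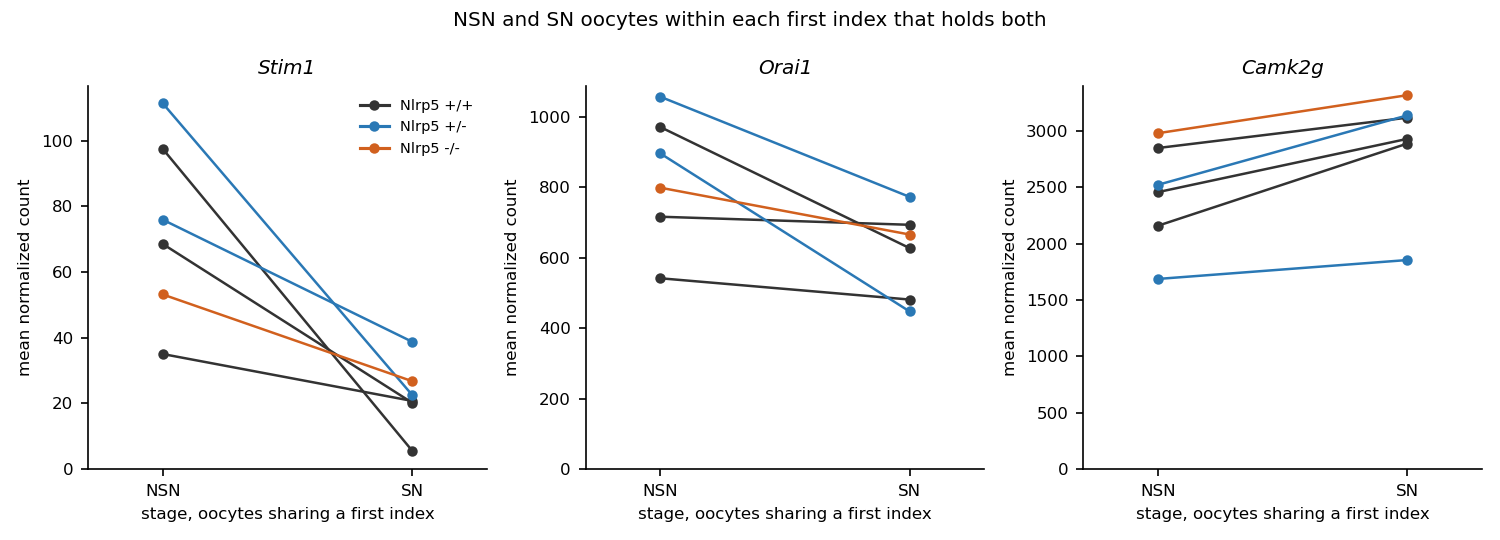
Mean normalized counts (y axes, linear from 0) of Stim1, Orai1 and Camk2g in NSN and SN oocytes (x axes) that share a first index, with a line for each of the 6 indices holding both stages and colours for the Nlrp5 genotype. The Stim1 and Orai1 lines all descend and the Camk2g lines all climb. Each mean is over 1 to 3 oocytes.

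Between Nlrp5 -/- and Nlrp5 +/+ the median difference over the members was 0.02 in NSN and 0.37 in SN oocytes, beside 0.0029 and 0.0086 over all genes. The SN median rested on the 2 Nlrp5 -/- oocytes, being 0.15 without oocyte 7 and 0.53 without oocyte 31. The median size was 0.21 and 0.38 over the members and 0.30 and 0.36 over all genes. Comparing Nlrp5 -/- with Nlrp5 +/+, Itpr3 alone reached 0.5 in NSN oocytes (1.18, against 29% of genes), and Stim1 (0.65) and Orai1 (0.55) in SN oocytes (against 36%). The SN values of Stim1 were 22.9 and 26.8 in Nlrp5 -/- beside 0 to 32.9 in Nlrp5 +/+, and overlapped. Without SN oocyte 7 Orai1 was at 0.15 and without SN oocyte 31 at 0.86, Trpm7 moved from -0.36 to 0.32 and -1.67, and without SN oocyte 77 Stim1 was at 0.40. The number of members at 0.5 or more in SN rested on single oocytes, being 0 without oocyte 77 and 7 without oocyte 31. Camk2g was the only member whose oocytes did not overlap, in SN (background 15%), and none stood apart in NSN (background 7.07%).

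Comparing Nlrp5 +/- with Nlrp5 +/+, no member reached 0.5 in NSN oocytes, against 20.1% of genes, and Itpr3 alone did in SN oocytes (0.52, against 12.6%). No member's oocytes stood apart at either stage, where the background was 0.439% and 0.0792%. This comparison shares its Nlrp5 +/+ oocytes with the one before it. Comparing Nlrp5 -/- with Nlrp5 +/-, Itpr3 (1.07) and Calr (-0.64) reached 0.5 in NSN oocytes, against 27.3%, and Trpm7 (-0.51) and Camk2g (0.50) in SN oocytes, against 33.5%. In NSN no member's oocytes stood apart, with a background of 1.19%, and in SN Camk2g did, with a background of 10.9%. Without oocyte 7 the SN values were 0.17 for Trpm7 and 0.31 for Camk2g, and without oocyte 31 they were -1.82 and 0.67. The granulosa cell counts and the first indices moved with genotype, and their part in these values was not tested.

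The spread between oocytes of 1 group went with transcript length for some members. A length score was taken for each oocyte, the mean log2 level of the 841 longest minus that of the 841 shortest transcripts among genes with a mean of at least 100 normalized counts, without the members. With the 6 group means taken out, Trpm7 (r = 0.69), Itpr1 (0.64), Itpr3 (0.59) and Atp2a2 (0.56) were higher where long transcripts were, and Orai1 (-0.61), Itpr2 (-0.57) and Calr (-0.46) lower, over 32 oocytes. For Stim1 r was -0.22, for Cacna1h -0.06 and for Camk2g 0.02. At 0.5 or more in size were 6 of 10 members and 24.8% of the 13896 genes with a mean of at least 10. Those genes were not matched to the members in level or length, and 8 members had a mean of at least 100. The shares are thus not a like comparison. Itpr2 went with the short transcripts although its exons span 16.2 kb.

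**Figure D5:**
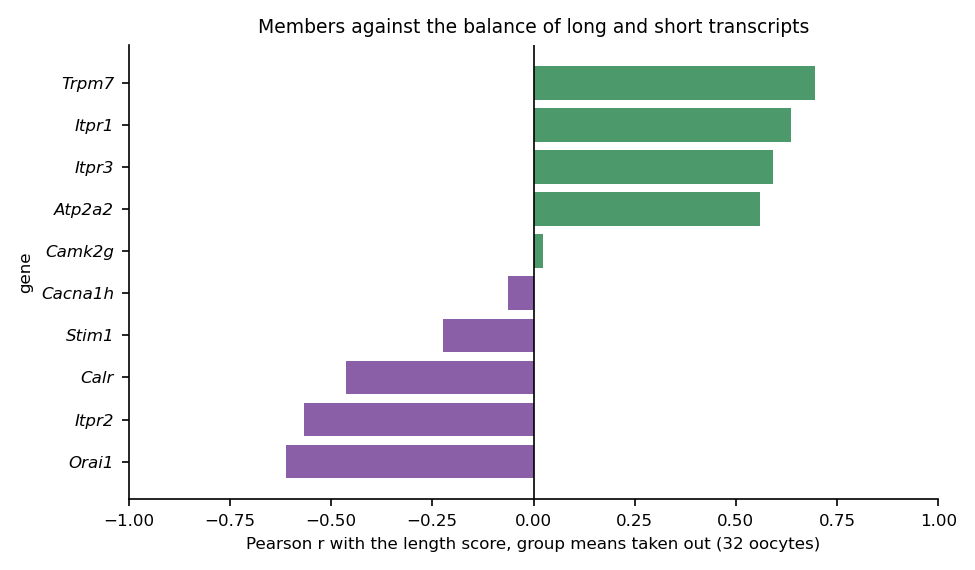
Pearson r (x axis) between each gene (y axis) and the length score over 32 oocytes, after the mean of each genotype and stage was taken out. Trpm7, Itpr1, Itpr3 and Atp2a2 lie at 0.56 or more, Orai1 and Itpr2 at -0.57 or less, and Camk2g and Cacna1h near 0.

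Of the 45 pairs of members, 3 had an r above 0.5 and 3 below -0.5 after the group means were taken out. Itpr1 and Atp2a2 went together most closely (r = 0.78), then Itpr2 with Calr (0.62) and Itpr1 with Trpm7 (0.60). Orai1 ran opposite to Trpm7 (-0.79), Itpr1 (-0.72) and Atp2a2 (-0.64). The members that were lower where long transcripts were high did not all go together: r was 0.03 for Orai1 with Itpr2 and -0.09 for Orai1 with Calr. Nor did those on the other side, with 0.12 for Itpr3 and Trpm7. The median over all pairs was 0.0019. The members of a pair share a library and its size factor, and these values are descriptions.

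The genes most like each member over the 33 oocytes, among 8436 with a mean of at least 100, were Huwe1 and Trip12 for Itpr1 (r = 0.91 for both), Ndufa2 (0.90) and Atp5j2 (0.89) for Itpr2, and Sptbn1 (0.88) and Son (0.85) for Atp2a2. They were Mul1 (0.85) and Zfand2b (0.82) for Orai1, Rtn4 (0.88) and Dynlt3 (0.87) for Trpm7, and Hmgxb3 (0.72) and Extl3 (0.71) for Cacna1h. They were Mdh1 (0.80) and Gm20695 (0.78) for Calr, and 4933427D06Rik and Epn2 (0.84 for both) for Camk2g. For Stim1, searched after its values were seen among 13896 genes with a mean of at least 10, they were Rnf11 (0.87) and Wdr45b (0.85). Of its 50 most alike genes, 7 were on the study's list of 105 genes higher in NSN and none on that of genes higher in SN. Stim1 itself separated the stages, so such matches follow in part from the choice of gene. Itpr3 was not searched. Without oocyte 15 each r of the pairs named here moved by 0.033 at most.

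Of 113 other genes of calcium handling, 112 were in the table and 81 had a mean of at least 10 normalized counts. Between stages, 10 were higher and 16 lower in SN by 0.5 or more in Nlrp5 +/+, 4 and 12 in Nlrp5 +/-, and 6 and 18 in Nlrp5 -/-, which is 32.1%, 19.8% and 29.6% of the 81, below the 34.7%, 29.5% and 38.2% of all genes. Among 12 genes of store-operated and plasma membrane entry, 6, 3 and 3 were lower and 1, 2 and 1 higher, or 58.3%, 41.7% and 33.3% at that size, above the share of all genes in Nlrp5 +/+ and +/- and below it in Nlrp5 -/-. Among 13 genes of the store lumen, such as chaperones and disulfide isomerases, 0, 0 and 1 were lower and 1, 1 and 0 higher, or 7.69% in each genotype. Between Nlrp5 -/- and Nlrp5 +/+, 13 of the 81 were higher and 6 lower in NSN oocytes (23.5%, against 29% of all genes), and 16 higher and 9 lower in SN oocytes (30.9%, against 36%).

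By the rule of a log2 difference of at least 1 in all 3 genotypes, Erlin2 alone was lower in SN. Erlin2 is part of a complex in the endoplasmic reticulum that removes activated inositol trisphosphate receptors. Its lowest, median and highest were 113, 157 and 179 normalized counts in NSN and 34.6, 61.5 and 87 in SN Nlrp5 +/+ oocytes, without overlap. The difference was -1.29 there, -1.12 in Nlrp5 +/- with overlap, and -1.05 in Nlrp5 -/- without overlap, where it was -0.75 without NSN oocyte 14 and -0.80 without SN oocyte 7, below the size of the rule. At that size in 3 genotypes, 3.27% of all genes were lower and 0.597% higher.

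By the same size at both stages between Nlrp5 -/- and Nlrp5 +/+, the kinase Camk1 was higher (1.91 in NSN and 1.39 in SN) and Ppp3ca, a catalytic subunit of calcineurin, lower (-1.29 and -1.10). Only Camk1 in SN oocytes did not overlap. Camk1 had 18.5, 20.5, 36.3 and 109 normalized counts in the NSN Nlrp5 -/- oocytes and 4.71 to 22.2 in the NSN Nlrp5 +/+ oocytes. Ppp3ca had 11.05, 14.8, 30.5 and 58.7 beside 49.8 to 94.7. Without oocytes 13, 14 and 7 the differences were 1.24 and 1.198 for Camk1 and -1.02 and -0.97 for Ppp3ca. Among Nlrp5 -/- oocytes Camk1 was highest in oocytes 15 (277) and 14 (109), which also had most of the low granulosa cell genes. The part of those genes was not tested. Ppp3ca had 164 in oocyte 15, and the 58.7 was in oocyte 30.

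Itpkb, a kinase of inositol trisphosphate, and S100a10, of a family of calcium-binding proteins, also met the rule, with differences of 2.75 and 1.24 for Itpkb and 2.98 and 2.31 for S100a10. The highest NSN Nlrp5 -/- oocyte for both was oocyte 14, with 68.6 normalized counts of Itpkb and 100.5 of S100a10, and oocyte 29 had 0 of both. The NSN Nlrp5 -/- means were 20.4 ± 32.5 for Itpkb and 32.4 ± 46.02 for S100a10 (SD, 4 oocytes). Oocyte 15 had 235 and 654, and without it the mean of Itpkb was 4.13, below the minimum of 10. Without oocytes 13, 14 and 7 the NSN differences were 1.05 and 0.57 and the SN differences 2.004 and 3.05. The part of the granulosa cell genes in these values was not tested. Of all genes 3.09% met this rule.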

How the data were processed

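RNA was measured in 33 single germinal vesicle oocytes, primed on the poly(A) tail and sequenced without strand. The deposited table holds raw counts of reads per gene and oocyte, which the authors made with Trim Galore (trimming) and HISAT2 (alignment), with gene coordinates of GRCm38; the methods name GRCm39 and the tool versions are not given in the sources used here. The authors had left out libraries under 4000000 reads. The table has 35373 entries, and 52 that repeat a gene were dropped. Tables of the authors' own fold changes and p-values were not used.

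Genotype came from the labels and stage from the study's plots. Counts were divided by median-of-ratios size factors over all oocytes (pandas 2.3.3, numpy 2.4.6 and scipy 1.17.1 under Python 3.11.15; plots by matplotlib 3.10.9). Differences are log2 ratios of group means plus a pseudocount of 1, called at 0.5 in size, beside the 13896 genes with a mean of at least 10. With each group taken as 1 sample, no p-value was computed; the exact 95% Poisson intervals of pooled counts hold counting error alone. Depth was 4223595 to 15573360 counts per oocyte. Exon lengths and shared exon bases came from an annotation of GRCm39 and promoters from RefSeq (GRCm38.p6). In RefSeq 6 members had a promoter, and Itpr1, Atp2a2, Cacna1h and Camk2g did not.

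The members and gene lists were chosen with earlier results of these data known. All members are named, and so are the 2 genes most alike each member with a mean of at least 100. Other calcium genes are named by a log2 difference of at least 1. It had to hold in all 3 genotypes between stages, or at both stages between Nlrp5 -/- and Nlrp5 +/+. Relatives of the members outside that rule (Stim2, Orai2, Orai3 and others of their families) are named beside the family shares, only some with levels. Stage differences are given for Stim2 and Orai3. These relatives were chosen after their values were seen. Alternatives were other scalings (within the oocytes compared, total count, TMM), medians, pooled sums, a pseudocount of 5, no filter or a mean of at least 100, leaving out each oocyte, other stages for oocytes 46, 48, 55 and 61, and genotypes without regard to stage with oocyte 15. Those within a first index, without oocytes 13, 14 and 7, and without oocyte 15, the staging score and the search for genes like Stim1 were chosen after seeing the data. The calculation was tested on simulated data.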

Additional observations from a re-analysis of the deposited data

Results flagged for a closer look

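In 6 of 50 tests of a member within a group of 4 to 9 oocytes, a single oocyte lay far from the rest by Dixon's test. Chance flags about 1 in 20 groups where values are normal and independent. These were counts not put on a log scale, and the members share oocytes, so no excess over chance is read from the 6. Oocyte 55, an SN Nlrp5 +/- oocyte, held the highest Itpr1 (1640 normalized counts, next 834) and Atp2a2 (2810, next 1610) of its group, and its length score, 0.46, was the highest of that group. Oocyte 13, an NSN Nlrp5 -/- oocyte, had 2453 normalized counts of Atp2a2 (next 1395) and the highest length score of all, 0.58. Oocyte 45, an NSN Nlrp5 +/- oocyte, had 64.7 normalized counts of Itpr3 (next 31.9), from 95 reads. Oocyte 80, an SN Nlrp5 +/+ oocyte, had 5159 normalized counts of Calr (next 3304), and its length score, -0.36, was the lowest of its group. Oocyte 69, an SN Nlrp5 +/+ oocyte, had 3274 normalized counts of Camk2g (next 2961). The part of the length score in these values was not tested.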

How the results depend on the processing

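Depth limits Stim1 and Itpr3 most, with median raw counts of 39 and 20, and the 2 SN Nlrp5 -/- oocytes limit every value that rests on them. Of 1902 values of single members under the alternatives, 137 turned sign, in 43 of the 90 pairs of member and comparison, and in 32 of them when a single oocyte was left out. Of the 15 pairs at 0.5 or more in size 1 turned: Trpm7 in SN Nlrp5 -/- minus Nlrp5 +/- was 0.17 without oocyte 7, and also without oocytes 13, 14 and 7. Without oocyte 7, Itpr3 and Trpm7 in SN Nlrp5 -/- minus Nlrp5 +/+ also turned, from 0.40 to -0.70 and from -0.36 to 0.32. With the minimum mean taken over the 32 staged oocytes, 13687 genes and 79 calcium genes passed, and the shares of all genes called moved by 0.9 percentage points at most. The median over the members was -0.14 with medians over oocytes and -0.24 without oocytes 13, 14 and 7 in NSN Nlrp5 -/- minus Nlrp5 +/+ (0.02 as reported), and -0.15 without those oocytes in NSN Nlrp5 -/- minus Nlrp5 +/- (0.07 as reported). Leaving out single oocytes, it ran from -0.15 to 0.06 in the first of these and from -0.12 to 0.38 in SN minus NSN of Nlrp5 -/-.

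The number of members at 0.5 or more in size moved as follows, with smaller moves not all listed. With a mean of at least 100, which leaves 8 members, it was 0 and 0 in SN minus NSN of Nlrp5 +/+ and +/-, 2 in Nlrp5 -/-, 0 and 1 in NSN and SN Nlrp5 -/- minus +/+, 0 in SN Nlrp5 +/- minus +/+, and 1 in NSN Nlrp5 -/- minus +/-. In SN minus NSN of Nlrp5 +/+ it was 1 with a pseudocount of 5 and within first indices, and 3 with total counts. In that of Nlrp5 +/- it was 2 with oocyte 61 as SN and 55 as NSN and 4 within first indices. In Nlrp5 -/- minus +/+ it was 2 (medians), 2 (without regard to stage) and 3 (without oocytes 13, 14 and 7) for NSN, and 1 (pooled sums) for SN. In Nlrp5 +/- minus +/+ it was 1 (without regard to stage) for NSN, and 2 (medians), 0 (pseudocount of 5) and 2 (oocytes 61 and 55 moved) for SN. In Nlrp5 -/- minus +/- it was 4 (oocytes 61 and 55 moved), 1 (without regard to stage) and 5 (without oocytes 13, 14 and 7) for NSN, and for SN 0 with size factors within the oocytes compared, medians or pooled sums, 1 with total counts, TMM, oocytes 61 and 55 moved or without regard to stage, and 4 with oocytes 46 and 48 exchanged. Leaving out single oocytes it ran from 1 to 3 in SN minus NSN of Nlrp5 +/+, 4 to 7 in that of Nlrp5 -/-, 1 to 3 and 0 to 7 in NSN and SN Nlrp5 -/- minus +/+, 0 to 1 in both Nlrp5 +/- minus +/+, and 2 to 5 and 0 to 5 in NSN and SN Nlrp5 -/- minus +/-. These alternatives were run on the members only, so no share of all genes stands beside these counts, and they show only how the members moved. The causes were not tested.

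No paired analysis was possible because the replicate numbers only name oocytes in accession order and no label ties oocytes of different groups to a shared mouse or litter. The stages were compared within the first indices that held both, which groups oocytes by library index and not by replicate number or mouse.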
